A study of Mus musculus with 45 samples.

Results

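The hearts sampled in this time course carried blood, and 8 genes of red cells were followed in them. They were the embryonic beta-type globins Hbb-y and Hbb-bh1, the embryonic alpha-type globin Hba-x, the adult beta-type globin Hbb-b2, and the erythroid genes Alas2, Slc4a1, Hemgn and Klf1. These 8 of the 18194 genes measured were chosen by name, with no threshold on their values, and each was read by its brightest probe set, the one whose mean across the 45 arrays was highest. Gene expression was measured on 45 Affymetrix arrays in 15 groups of 3, described by the submitters as biological replicates. One group held ESC, cultured embryonic stem cells of line R1, and one whole embryos of embryonic day 7.5, written E7.5. Heart tubes were collected at E8.5. Later hearts were split by dissection into left and right ventricle, which gave 2 groups for each of 6 ages: 4 before birth (E9.5, then E12.5 and E14.5, and last E18.5), day 3 of postnatal life (the newborn) and the adult. The animals were CD1 mice of wild-type genotype. Material was pooled before birth, from 30 to 50 embryos or hearts per replicate through E9.5, from 10 to 20 for E12.5 or E14.5 and from 3 to 5 for E18.5. A newborn or adult replicate came from 1 heart, frozen and pulverised before extraction. Values are log2 RMA (robust multi-array average) values, so that a difference of 1 is a 2-fold difference. Values of different probe sets are not on a common scale, and only changes of a gene are compared between genes.

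Mammalian blood starts with primitive red cells, which form in the yolk sac, enter the circulation as the heart begins to beat and carry embryonic haemoglobins. Definitive red cells follow, made first in the fetal liver and later in the bone marrow, and carry adult haemoglobins. Globin switching is the name for the replacement of embryonic by adult globins; in the mouse, primitive cells also change from beta-h1 to epsilon-y as they mature in the circulation. The heart fills with this blood as it forms, and dissected hearts carry some of it.

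Promoters are shown first because members that rose together at E8.5 can be read beside the letters upstream of them. RefSeq promoter windows (build GRCm38.p6), running from 250 bases before to 50 after the start of the gene, were at hand for 5 of the 8 genes: Hbb-y (chr7:103853158-103853457, minus strand), Hba-x (chr11:32276350-32276649, plus strand), Alas2 (chrX:150547167-150547466, plus strand), Hemgn (chr4:46404134-46404433, minus strand) and Klf1 (chr8:84901732-84902031, plus strand). Each is written 5′ to 3′ on the strand of its gene, with matches to any of the motifs named after the sequences in capitals.
Hbb-y: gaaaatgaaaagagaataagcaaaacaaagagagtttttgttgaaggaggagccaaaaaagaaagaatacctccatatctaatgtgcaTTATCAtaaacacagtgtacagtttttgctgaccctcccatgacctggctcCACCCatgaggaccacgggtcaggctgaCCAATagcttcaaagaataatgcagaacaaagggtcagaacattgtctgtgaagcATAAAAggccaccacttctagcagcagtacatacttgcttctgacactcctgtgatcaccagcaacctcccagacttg
Hba-x: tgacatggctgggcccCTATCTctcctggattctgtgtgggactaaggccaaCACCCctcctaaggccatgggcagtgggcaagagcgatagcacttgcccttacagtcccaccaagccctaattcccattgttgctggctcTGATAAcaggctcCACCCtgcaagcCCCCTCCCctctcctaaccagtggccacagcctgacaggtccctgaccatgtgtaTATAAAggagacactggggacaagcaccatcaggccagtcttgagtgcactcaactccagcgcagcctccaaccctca
Alas2: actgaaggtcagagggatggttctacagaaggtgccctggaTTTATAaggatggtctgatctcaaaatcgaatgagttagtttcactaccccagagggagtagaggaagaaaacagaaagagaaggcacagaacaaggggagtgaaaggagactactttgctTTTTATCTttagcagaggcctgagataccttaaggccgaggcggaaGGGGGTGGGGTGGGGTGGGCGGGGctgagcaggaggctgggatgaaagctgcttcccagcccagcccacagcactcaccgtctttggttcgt
Hemgn: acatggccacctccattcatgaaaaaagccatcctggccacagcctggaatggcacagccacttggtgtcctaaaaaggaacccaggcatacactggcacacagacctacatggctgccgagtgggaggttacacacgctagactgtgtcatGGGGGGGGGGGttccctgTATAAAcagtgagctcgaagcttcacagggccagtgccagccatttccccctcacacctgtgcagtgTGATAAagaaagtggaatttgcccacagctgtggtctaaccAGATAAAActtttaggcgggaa
Klf1: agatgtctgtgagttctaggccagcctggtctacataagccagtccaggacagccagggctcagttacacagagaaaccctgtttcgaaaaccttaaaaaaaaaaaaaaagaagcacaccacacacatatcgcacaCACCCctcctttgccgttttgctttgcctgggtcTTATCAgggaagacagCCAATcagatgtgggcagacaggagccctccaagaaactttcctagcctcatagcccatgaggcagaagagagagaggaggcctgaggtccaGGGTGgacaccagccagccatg

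The motifs were searched on both strands. The GATA type, the kind of site bound by the erythroid factor GATA1, was searched as AGATAA or as TGATAA, each also with G in place of its last A. It was present in 5 of the 5 windows, against 29.8% of the 32851 promoter windows in the table. The short CACCC was present in 4 of 5 (Hbb-y, Hba-x, Alas2 and Klf1; 57.5% of all windows), and the longer form CCNCNCCC, the kind bound by the protein of Klf1, in 3 of 5 (Hba-x, Alas2 and Hemgn; 49.5%). Every CCNCNCCC match in Hemgn lay in a single run of G, and those of Alas2 overlapped each other and its CACCC matches. The TATA type (TATAAA or ATAAAA) was present in 4 of 5 (all but Klf1; 24.7%) and overlapped a GATA match in Alas2 and Hemgn. In Hbb-y and Hba-x it lay at the same distance, from position -28 to -23 before the start. CCAAT was present in Hbb-y and Klf1 (37.4% of all windows). These matches describe letters in the windows and were not tested.

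Marker genes separated stem cells, E7.5 embryos and hearts as labelled. They did not check the age of the hearts or the side of the ventricles. The mean of 12 ventricle muscle markers was 5.49 to 5.73 on the ESC and E7.5 arrays and 12.45 to 13.60 on all later ones, and that of 8 stem cell markers was 11.15 to 11.23 in ESC and at most 7.66 elsewhere. Other tissue was present on several arrays. Liver markers (11 genes) averaged 8.07 on the E14.5 left ventricle array number 2 and 9.83 on the E18.5 left ventricle array number 2. These were 2.02 and 3.05 above the other replicates of their groups. The E14.5 right ventricle array number 1 averaged 6.58, 1.61 above. The E14.5 left array number 3 averaged more, 6.98, but stood only 0.39 above the other replicates of its group and was not left out. Visceral endoderm and yolk sac markers (17 genes) stood 2.22 above the other replicates on the E8.5 array number 2 and 1.72 above them on the E18.5 left array number 2. At E7.5 these yolk sac markers averaged 10.39 to 11.22 on all 3 arrays. Decidua and trophoblast markers (10 genes) averaged 4.98 on the E7.5 array number 2, against 3.87 and 3.66 on the others, a gap of 1.22 that is under the limit of 1.5 used to leave arrays out. No value on the RMA scale is 0, so none of these markers can be called absent. The fetal liver, the yolk sac and maternal decidua are all rich in red cells, and results that rest on these arrays are given with and without them; the part other tissue played in them was not tested. In bulk samples fewer red cells and less RNA per red cell cannot be told apart.

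**Figure D1:**
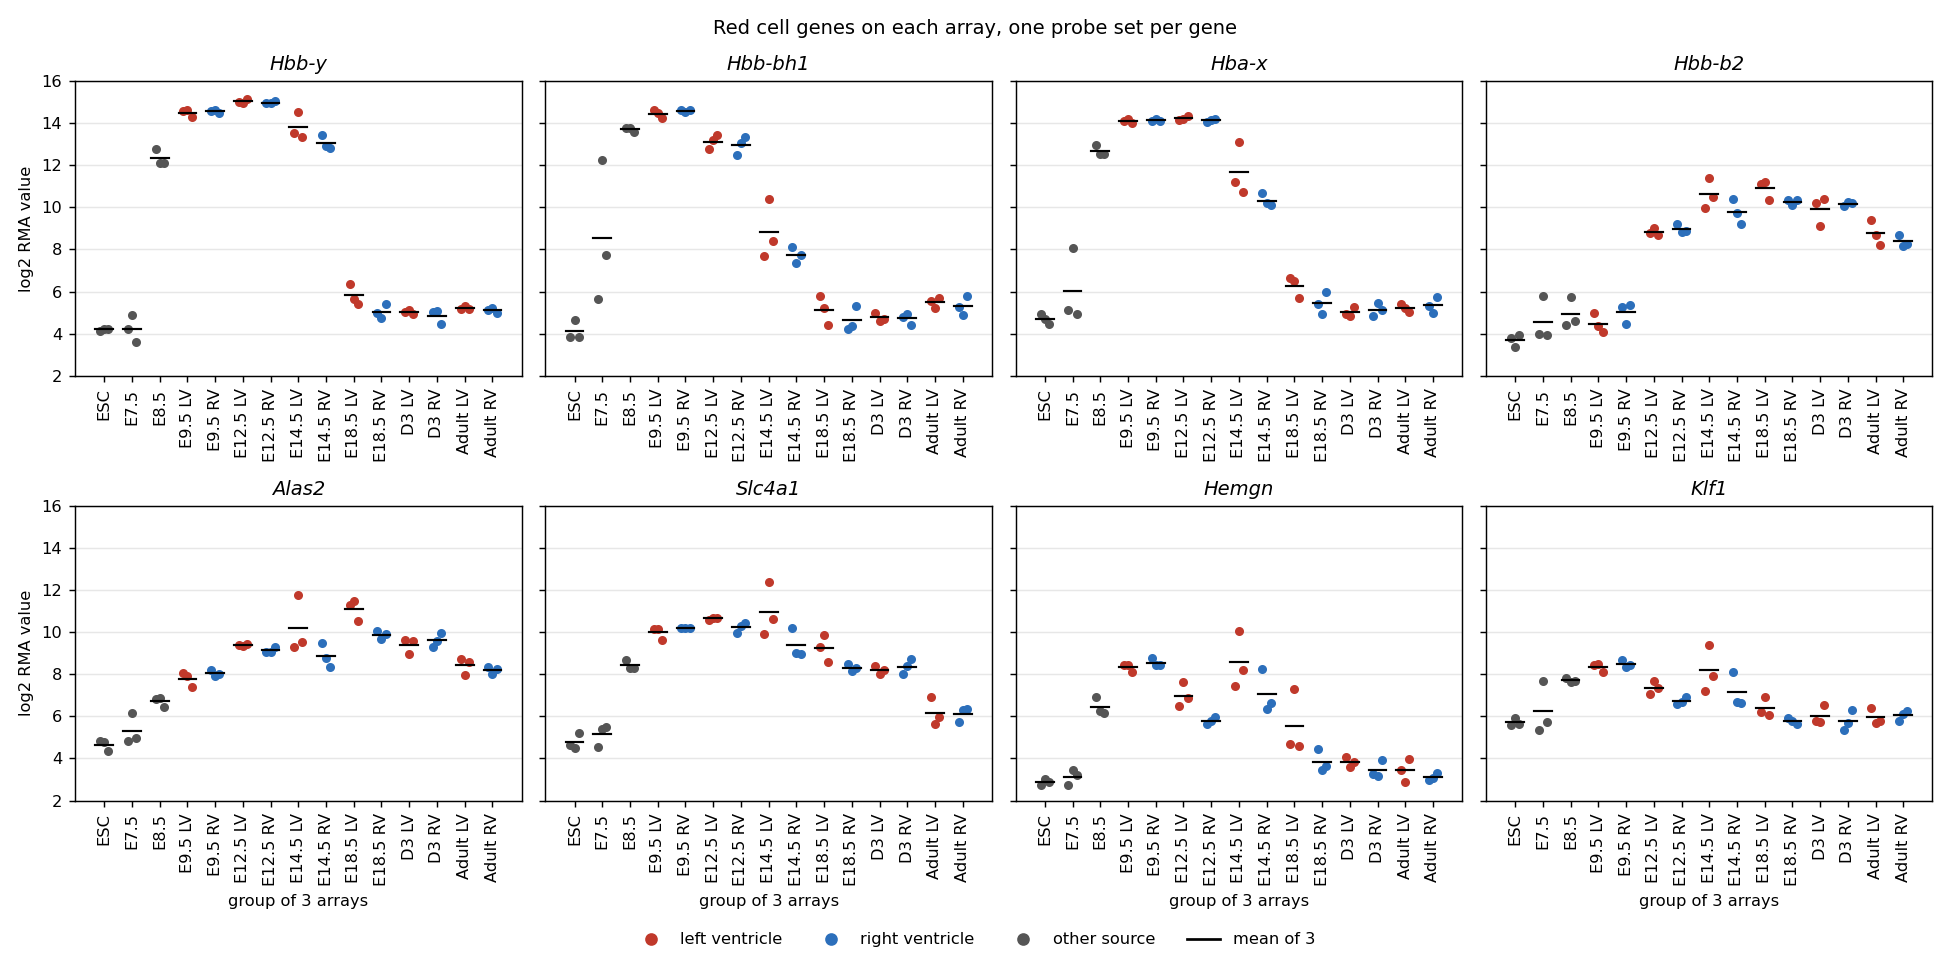
Log2 RMA value of each of the 8 genes (vertical axis) on every array, by group (horizontal axis, 3 arrays each), with left ventricles in red, right ventricles in blue, other sources in grey and the mean of 3 as a line. Hbb-y, Hbb-bh1 and Hba-x are above 12 at E8.5 and E9.5 and at most 6.65 from E18.5 on, while Hbb-b2 is at most 5.77 up to E9.5 and at least 8.18 from E12.5 on.

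The embryonic globins were near the bottom of the scale in ESC, close to the top from E8.5 to E12.5, and back near the bottom by E18.5. Hbb-y encodes epsilon-y, the main beta-type chain of primitive red cells. Its 3 values were 4.15, 4.22 and 4.24 in ESC and 4.24, 4.87 and 3.60 at E7.5. In heart tubes at E8.5 they were 12.77, 12.11 and 12.12. No E8.5 array came near the E7.5 range. At E9.5 the left ventricles gave 14.56, 14.61 and 14.29 and the right 14.58, 14.63 and 14.48. The highest values of the course came at E12.5, with 15, 14.98 and 15.14 on the left and 14.95, 14.94 and 15.04 on the right. These lie at the top of the scale, where the highest value of any probe set was 15.18, so that differences between E9.5 and E12.5 can be compressed. At E14.5 the left gave 13.53, 14.53 and 13.33 and the right 13.43, 12.90 and 12.80, all lower than any array of E12.5. At E18.5 the values were 6.38, 5.67 and 5.40 on the left and 4.96, 4.74 and 5.39 on the right, and from day 3 on all 12 lay between 4.46 and 5.33.

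Hbb-bh1, which encodes the beta-h1 chain, had the largest rise of the 8 genes from ESC to E7.5, by 4.43. It gave 3.85, 4.64 and 3.86 in ESC and 5.66, 12.23 and 7.76 at E7.5, the widest spread of any group, with the array number 2 far above the others. At E8.5 it gave 13.79, 13.77 and 13.59. The E9.5 values were 14.62, 14.46 and 14.24 on the left and 14.63, 14.51 and 14.62 on the right, and those of E12.5 were 12.75, 13.19 and 13.43 on the left and 12.49, 13.07 and 13.32 on the right. Unlike Hbb-y, Hbb-bh1 was lower on every array of E12.5 than on any of E9.5. At E14.5 it gave 7.67, 10.38 and 8.41 on the left and 8.13, 7.38 and 7.76 on the right, with the left array number 2 again the highest. From E18.5 on all 18 values lay between 4.22 and 5.80.

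Hba-x encodes zeta, the embryonic alpha-type chain. It gave 4.92, 4.71 and 4.44 in ESC, 5.11, 8.06 and 4.94 at E7.5, and 12.94, 12.55 and 12.54 at E8.5. The E9.5 values, 14.12, 14.19 and 14 on the left and 14.09, 14.20 and 14.09 on the right, overlapped those of E12.5, 14.13, 14.22 and 14.33 on the left and 14.05, 14.14 and 14.21 on the right. At E14.5 it gave 11.20, 13.12 and 10.73 on the left and 10.69, 10.19 and 10.09 on the right, and at E18.5 6.65, 6.48 and 5.71 on the left and 5.43, 4.95 and 6.0 on the right. Hbb-bh1 was thus lower on every E12.5 array than on any E9.5 array, whereas Hba-x and Hbb-y were first lower on all arrays at E14.5.

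Hbb-b2 encodes the adult beta-minor chain and ran the other way. It gave 3.79, 3.36 and 3.94 in ESC, 3.98, 5.77 and 3.96 at E7.5, and 4.41, 5.74 and 4.59 at E8.5. The E9.5 values were 4.96, 4.38 and 4.06 on the left and 5.28, 4.46 and 5.37 on the right, within the range of the earlier stages. At E12.5 the left gave 8.79, 9.0 and 8.67 and the right 9.19, 8.81 and 8.89, above every earlier array. Values of 9.97, 11.41 and 10.48 on the left and 10.39, 9.71 and 9.19 on the right followed at E14.5, and of 11.11, 11.22 and 10.37 on the left and 10.34, 10.11 and 10.37 on the right at E18.5. At day 3 they were 10.21, 9.10 and 10.42 on the left and 10.07, 10.24 and 10.20 on the right, and in the adult 9.38, 8.71 and 8.19 on the left and 8.70, 8.18 and 8.27 on the right. The 2 arrays with the highest early values were number 2 at E7.5 and number 2 at E8.5, which were also the highest of their groups in decidua and in yolk sac markers respectively; the part of those tissues was not tested.

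**Figure D2:**
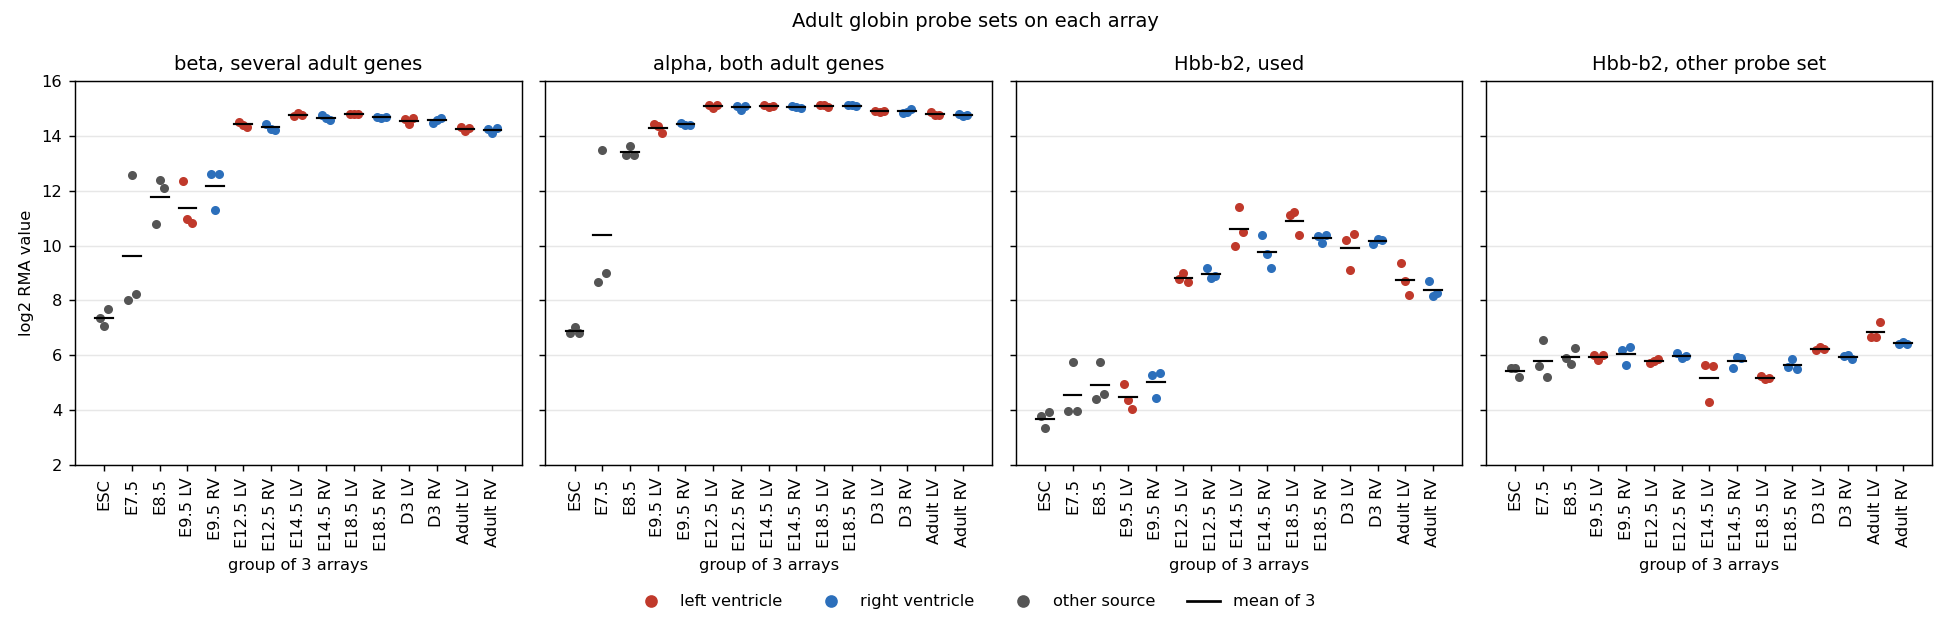
Log2 RMA value (vertical axis) of 4 adult globin probe sets on every array, by group (horizontal axis), with the mean of 3 as a line: one annotated to several adult beta-globin genes, one to both adult alpha-globin genes, and the pair annotated to Hbb-b2. The first is between 10.78 and 12.62 at E8.5 and E9.5 and at least 14.12 from E12.5 on, and the second Hbb-b2 probe set stays between 4.31 and 7.2 throughout.

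Signal on probe sets annotated to several adult globin genes was not confined to the late stages. Whether it came from the embryo's own blood, other tissue or other sequences matched by the probes was not tested. A probe set annotated to 4 adult beta-globin genes, which cannot be assigned to any 1 of them, gave 7.35, 7.07 and 7.68 in ESC, 8.02, 12.57 and 8.24 at E7.5, and 10.78, 12.38 and 12.11 at E8.5. At E9.5 it gave 12.35, 10.98 and 10.82 on the left and 12.62, 11.29 and 12.60 on the right, and from E12.5 on all 30 values lay between 14.12 and 14.82. It rose by 2.58 from E9.5 to E12.5 (adjusted p = 0.00420, limma over all probe sets). A probe set annotated to both adult alpha-globin genes gave 6.82, 7.04 and 6.83 in ESC, 8.66, 13.47 and 8.99 at E7.5 and 13.31, 13.63 and 13.29 at E8.5, that is, it was high from the heart tube on. In this it differed from Hbb-b2, in which the test did not call a change from E7.5 to E8.5 (0.34, adjusted p = 0.475). The alpha probe set was 14.73 to 15.13 from E12.5 to the adult, near the top of the scale. Another set annotated to both alpha genes fell by 1.39 from E14.5 to the adult (adjusted p = 0.0456), and the dim set of Hba-a2 alone fell by 1.70 (adjusted p = 3.78e-11). The sets of Hba-a1 alone (3.39 to 4.23) and Hba-a2 alone (4.27 to 6.81) were dim and were not called from E7.5 to E8.5 (-0.19 and -0.29, adjusted p = 0.243 and 0.0846). On the E7.5 array number 2 the beta set and the first alpha set, Hbb-bh1 and Hba-x were all well above the other replicates. At E9.5 decidua and trophoblast markers averaged 3.99 on left number 1 and 4.06 on right number 1. Those arrays were the highest of their sides for the beta set too. Right number 3, at 12.60 on the beta set, averaged 3.36 in those markers.

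Other probe sets of the same genes gave these results. The 3 of Hbb-bh1 were called alike at all 10 stage comparisons. For Hbb-y, 2 other probe sets did not call the rise from E8.5 to E9.5 (1.00 and 1.01, adjusted p = 0.0682 and 0.0850). They had lower floors, 2.91 to 3.27 in ESC and 2.54 to 2.99 in the adult, and differed more between E14.5 and the adult, where they fell by 11.31 and fell by 11.43, against 8.25 on the probe set used. From E12.5 to E14.5 their differences of -0.70 and -0.72 were not called (adjusted p = 0.309 and 0.335). From E18.5 to day 3 they fell by 2.34 and fell by 2.08 (adjusted p = 1.42e-04 and 8.74e-04), where the probe set used did not pass. For Slc4a1, 1 other probe set had the same calls as the one used except from E9.5 to E12.5, where it rose by 0.87 (adjusted p = 0.00407), and 1 stayed between 3.34 and 4.33 on all arrays. The second probe set of Hbb-b2 was called in the opposite direction to the first at 3 comparisons: it fell by 0.59 from E9.5 to E18.5, and rose by 0.55 from day 3 to the adult and by 1.16 from E14.5 to the adult. Statements on Hbb-b2 therefore hold for the brighter probe set. That probe set and both of the other Hbb-y sets are of the x type, which the maker gives to sets with probes that also match other sequences.

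Alas2 encodes the erythroid form of the enzyme that starts haem synthesis. It climbed through the embryonic stages: 4.36 to 4.81 in ESC, 6.45 to 6.85 at E8.5, 7.38 to 8.19 at E9.5 and 9.07 to 9.42 at E12.5. At E14.5 it gave 9.30, 11.78 and 9.52 on the left and 9.47, 8.78 and 8.36 on the right, and at E18.5 11.31, 11.46 and 10.51 on the left and 10.06, 9.68 and 9.89 on the right. It was 8.95 to 9.97 at day 3 and 7.98 to 8.71 in the adult. Its highest group mean thus came at E18.5, when the embryonic globins were near their floor.

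Slc4a1 encodes band 3, the anion exchanger of the red cell membrane. It was 4.50 to 5.51 in ESC and at E7.5, 8.32 to 8.69 at E8.5, 9.65 to 10.22 at E9.5 and 9.97 to 10.69 at E12.5. At E14.5 it gave 9.93, 12.36 and 10.63 on the left and 10.18, 8.99 and 8.94 on the right. It was 8.16 to 9.85 at E18.5, 8.0 to 8.72 at day 3 and 5.64 to 6.92 in the adult, above every array of ESC and E7.5.

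Hemgn encodes hemogen, a nuclear protein of blood cell precursors, and Klf1 the transcription factor that activates adult beta-globin and many other red cell genes. Both are typical of nucleated red cells and their precursors, and both had a first high at E9.5, where Hemgn was 8.1 to 8.76 and Klf1 8.12 to 8.66. At E12.5 Hemgn gave 6.47, 7.62 and 6.88 on the left and 5.62, 5.78 and 5.97 on the right, and Klf1 7.05, 7.67 and 7.37 on the left and 6.58, 6.68 and 6.93 on the right. Every array of E12.5 was below every array of E9.5 for both genes. At E14.5 Hemgn gave 7.44, 10.07 and 8.19 on the left and 8.27, 6.35 and 6.63 on the right, and Klf1 7.21, 9.40 and 7.94 on the left and 8.12, 6.66 and 6.63 on the right. The arrays with the highest value on each side, left number 2 and right number 1, were also the highest of their side in liver markers (8.07 and 6.58). Left number 3, at 6.98 in liver markers, was above right number 1 there but below it in Hemgn and Klf1. At E18.5 Hemgn gave 4.68, 7.29 and 4.61 on the left and 4.46, 3.43 and 3.66 on the right, the high one again being the array with raised liver markers. From day 3 on Hemgn was 2.86 to 4.06, its ESC values being 2.73 to 3.04, and Klf1 was 5.35 to 6.53 against 5.58 to 5.93 in ESC.

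Ranked by their means, neighbouring groups mostly overlapped. Of the 14 pairs of neighbours in the order of the 15 group means, 4 did not overlap for Hbb-y, Hbb-bh1, Alas2 and Slc4a1 each, 3 for Hba-x and for Hbb-b2, 2 for Hemgn and 0 for Klf1. The same count was not made over all genes, so these counts do not set the members apart from other genes. Hbb-y was highest in the left ventricle at E12.5 (15.04 ± 0.09, SD, n = 3), which overlapped the right ventricle at E12.5 (14.98); both lay above E9.5 right (14.56) without overlap. Hbb-bh1 had its highest mean at E9.5 right (14.59) and Hba-x at E12.5 left (14.23), and both overlapped the next group. Hbb-b2 and Alas2 were highest in the left ventricle at E18.5 (10.90 and 11.09), and Slc4a1, Hemgn and Klf1 at E14.5 left, E14.5 left and E9.5 right (10.97, 8.57 and 8.48).

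**Figure D3:**
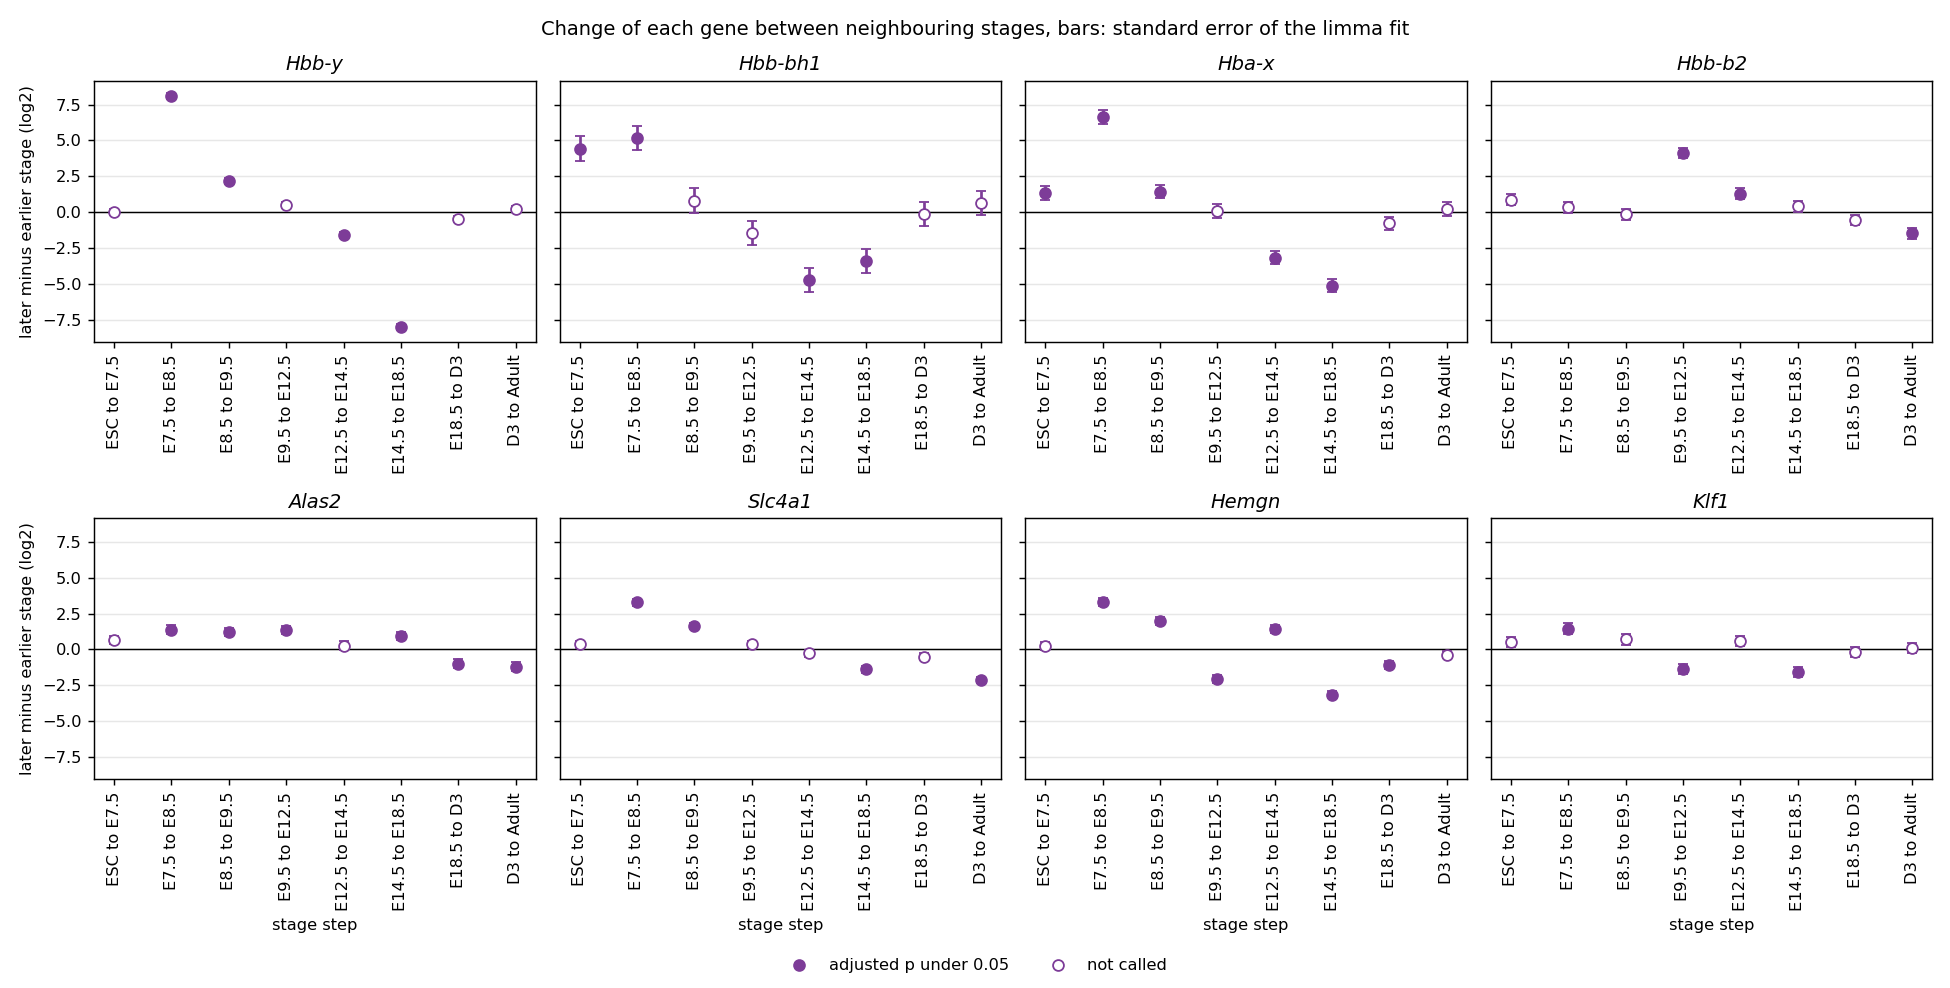
Change of each of the 8 genes between neighbouring stages (vertical axis, log2 difference, later minus earlier) at the 8 stage steps (horizontal axis), with the standard error of the limma fit as bars and filled points where the adjusted p was under 0.05. Hbb-y rose by 8.1 from E7.5 to E8.5 and fell by 8.0 from E14.5 to E18.5, while the steps of Klf1 stay within 1.58 of 0.

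The steps between stages were tested with limma over all 18194 genes, adjusted after Benjamini and Hochberg, and called at an adjusted p under 0.05; left and right ventricles of a number were averaged first, so that each stage had 3 values, and the SE is that of the fit. From ESC to E7.5, the members called were Hbb-bh1 and Hba-x, while Hbb-y was not (0.03, adjusted p = 0.924). Hbb-bh1 rose by 4.43 (SE 0.85, adjusted p = 1.17e-04) and Hba-x by 1.34 (SE 0.47, adjusted p = 0.0204). Thus 2 of 8 genes were called higher and 0 lower, against 24.3% of all genes called higher and 25.2% lower. The count called higher is near the share of all genes and by itself says nothing about these genes. Without the E7.5 array number 2 the rise of Hbb-bh1 was 2.59 (adjusted p = 5.60e-06). The call of Hba-x was lost without that array (0.33, adjusted p = 0.234) and without ESC array number 3 (1.22, adjusted p = 0.0681). Probe sets annotated to both adult alpha-globin genes rose here too, by 3.47, 3.66 and 5.63 on the 3 sets, as did the adult beta set, by 2.24. The count of 2 became 6 without the E7.5 array number 1 and 4 without number 3. Of the decidua and trophoblast markers 4 of 10 were called higher at this step and of the visceral endoderm and yolk sac markers 16 of 17; the part of those tissues was not tested.

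From E7.5 to E8.5, when whole embryos gave way to heart tubes, 7 of 8 genes rose and 0 fell, against 20.4% and 28.1% of all genes. Hbb-y rose by 8.1 (SE 0.22, adjusted p = 3.93e-19), Hba-x by 6.64 (SE 0.47, adjusted p = 3.40e-11) and Hbb-bh1 by 5.17 (SE 0.85, adjusted p = 1.97e-05). Outside the globins, Hemgn rose by 3.30, Slc4a1 by 3.29, Klf1 by 1.46 and Alas2 by 1.39. Klf1 was the only one of the 7 whose stages overlapped, through the E7.5 array number 2 at 7.70, and it was not called in a fit of only these stages (adjusted p = 0.0711). Since E7.5 samples were whole embryos and E8.5 samples heart tubes, stage and tissue cannot be told apart at this step.

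The rise went on from E8.5 to E9.5, where 5 of 8 genes were higher and 0 lower, against 12.8% and 14.1% of all genes. Hbb-y rose by 2.19 (SE 0.22, adjusted p = 8.52e-08), Hemgn by 2.00, Slc4a1 by 1.65 and Alas2 by 1.21. Of the 3 probe sets of Hbb-y only 1, the one used, was called at this step, and of the 3 of Slc4a1, 2 were. Hba-x rose by 1.44 (SE 0.47, adjusted p = 0.0249), a call lost when any of 5 of the 6 replicates compared was left out, with an adjusted p of 0.0545 to 0.0688. Hbb-bh1 (0.80, adjusted p = 0.553) and Klf1 (0.70, adjusted p = 0.164) were higher on every E9.5 value than on any of E8.5 but did not pass. The SE of Hbb-bh1 was the largest of the 8, with the wide E7.5 group in the fit, and in a fit of only these stages its change was called (adjusted p = 4.72e-04).

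Between E9.5 and E12.5, 2 of 8 genes were called higher and 2 lower, near the shares of all genes (20.1% and 18%). The count by itself therefore says nothing about these genes. Hbb-b2 rose by 4.14 (SE 0.37, adjusted p = 6.50e-09) and Alas2 by 1.35 (SE 0.29, adjusted p = 5.89e-04). Hemgn fell by 2.04 (SE 0.27, adjusted p = 1.85e-06) and Klf1 by 1.37 (SE 0.36, adjusted p = 0.00349). The falls of Hemgn and Klf1 were 1.34 and 0.98 in the left ventricle alone, which were not called (adjusted p = 0.0729 and 0.114). Hbb-bh1 was 1.47 lower at E12.5, not called in the fit of all stages (adjusted p = 0.188) but called in the fit of these stages alone (adjusted p = 5.67e-05) and with the 15 groups of arrays fitted separately (adjusted p = 0.0241).

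From E12.5 to E14.5 all of the embryonic globins fell while Hbb-b2 rose. Hbb-bh1 fell by 4.75 (SE 0.85, adjusted p = 5.62e-04), Hba-x by 3.18 (SE 0.47, adjusted p = 7.39e-05) and Hbb-y by 1.59 (SE 0.22, adjusted p = 3.47e-05). Hbb-b2 rose by 1.3 (SE 0.37, adjusted p = 0.0209) and Hemgn by 1.44 (SE 0.27, adjusted p = 9.00e-04). In all 3 of 8 genes were lower and 2 higher, against 6.1% and 7.18% of all genes. The call of Hbb-b2 was lost under many alternatives: without any of 4 of the 6 replicates (adjusted p = 0.0619 to 0.0934), in right ventricles only (0.80, adjusted p = 0.158), with the mean over probe sets (0.45, adjusted p = 0.267) and without the E14.5 left ventricle array number 2 (1.01, adjusted p = 0.0583). Without that array Hemgn was not called either (0.81, adjusted p = 0.0799), nor was it in left ventricles only (1.58, adjusted p = 0.0983), and Slc4a1 fell by 0.83 (adjusted p = 0.0193), in place of a difference of -0.27 that was not called. The 3 falls were called with and without it on the probe sets used. For Hbb-y only 1 of its 3 probe sets, the one used, was called at this step. Liver markers were higher at E14.5 for 5 of 11 genes.

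From E14.5 to E18.5 the embryonic globins fell again. Hbb-y fell by 8.0 (SE 0.22, adjusted p = 4.09e-17), Hba-x fell by 5.13 (SE 0.47, adjusted p = 1.97e-08) and Hbb-bh1 fell by 3.41 (SE 0.85, adjusted p = 0.00327). Hemgn fell by 3.14, Klf1 by 1.58 and Slc4a1 by 1.39, while Alas2 rose by 0.95 (SE 0.29, adjusted p = 0.0141). Altogether 6 of 8 genes were lower and 1 higher, against 18.7% and 11.8% of all genes. Hbb-b2 differed by 0.40 (adjusted p = 0.482). The rise of Alas2 was not called in the left ventricles alone (0.89, adjusted p = 0.127) or without replicate 3 of E14.5 (0.65, adjusted p = 0.121), replicate 1 of E14.5 (adjusted p = 0.052) or replicate 1 of E18.5 (adjusted p = 0.0617).

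After birth no member was called higher. From E18.5 to day 3, 2 of 8 genes were lower and 0 higher, against 10.3% and 9.94% of all genes. Alas2 fell by 0.98 (SE 0.29, adjusted p = 0.0181) and Hemgn by 1.06 (SE 0.27, adjusted p = 0.00684). Neither was called without the arrays that stood apart in markers of other tissue (0.68 lower for Alas2, adjusted p = 0.0849, and 0.42 lower for Hemgn, adjusted p = 0.362), and 8 of 11 liver markers fell at the same step. From day 3 to the adult 3 of 8 were lower and 0 higher, against 26.4% and 22.4%. Slc4a1 fell by 2.13 (SE 0.23, adjusted p = 3.64e-08), Hbb-b2 by 1.47 (SE 0.37, adjusted p = 0.00193) and Alas2 by 1.19 (SE 0.29, adjusted p = 0.00136). With the mean over probe sets Hbb-b2 was not called at this step by limma (-0.46, adjusted p = 0.133).

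Over the whole prenatal ventricle series, from E9.5 to E18.5, 8 of 8 genes were called, 2 higher and 6 lower, against 28.6% and 26.9% of all genes. Hbb-b2 rose by 5.83 (SE 0.37) and Alas2 by 2.57 (SE 0.29). Hbb-bh1 fell by 9.63 (SE 0.85), Hbb-y by 9.10 (SE 0.22) and Hba-x by 8.25 (SE 0.47), differences that run from near the top of the scale to the floor and give no exact fold, and Hemgn, Klf1 and Slc4a1 fell by 3.74, 2.33 and 1.31. From E14.5 to the adult 8 of 8 fell on the probe sets used, against 32.6% of all genes lower and 32.1% higher, the smallest of them Alas2 at 1.22. For Hbb-b2 the second probe set was called in the opposite direction. With the mean over probe sets Hbb-b2 was not called there by limma (-0.23, adjusted p = 0.429). With each array shifted to equal housekeeping means, no call of the 8 genes was reversed; the median change of all genes then moved from 0.05 to 0.26 from E14.5 to the adult and from 0.03 to 0.24 from day 3 to the adult, and the share of all calls that were higher moved from 51.5% to 62.5% for E9.5 to E18.5, from 49.6% to 66.9% for E14.5 to the adult, from 45.8% to 72.8% for day 3 to the adult, from 52.7% to 65.4% for E9.5 to E12.5 and from 49.1% to 60.0% for ESC to E7.5.

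**Figure D4:**
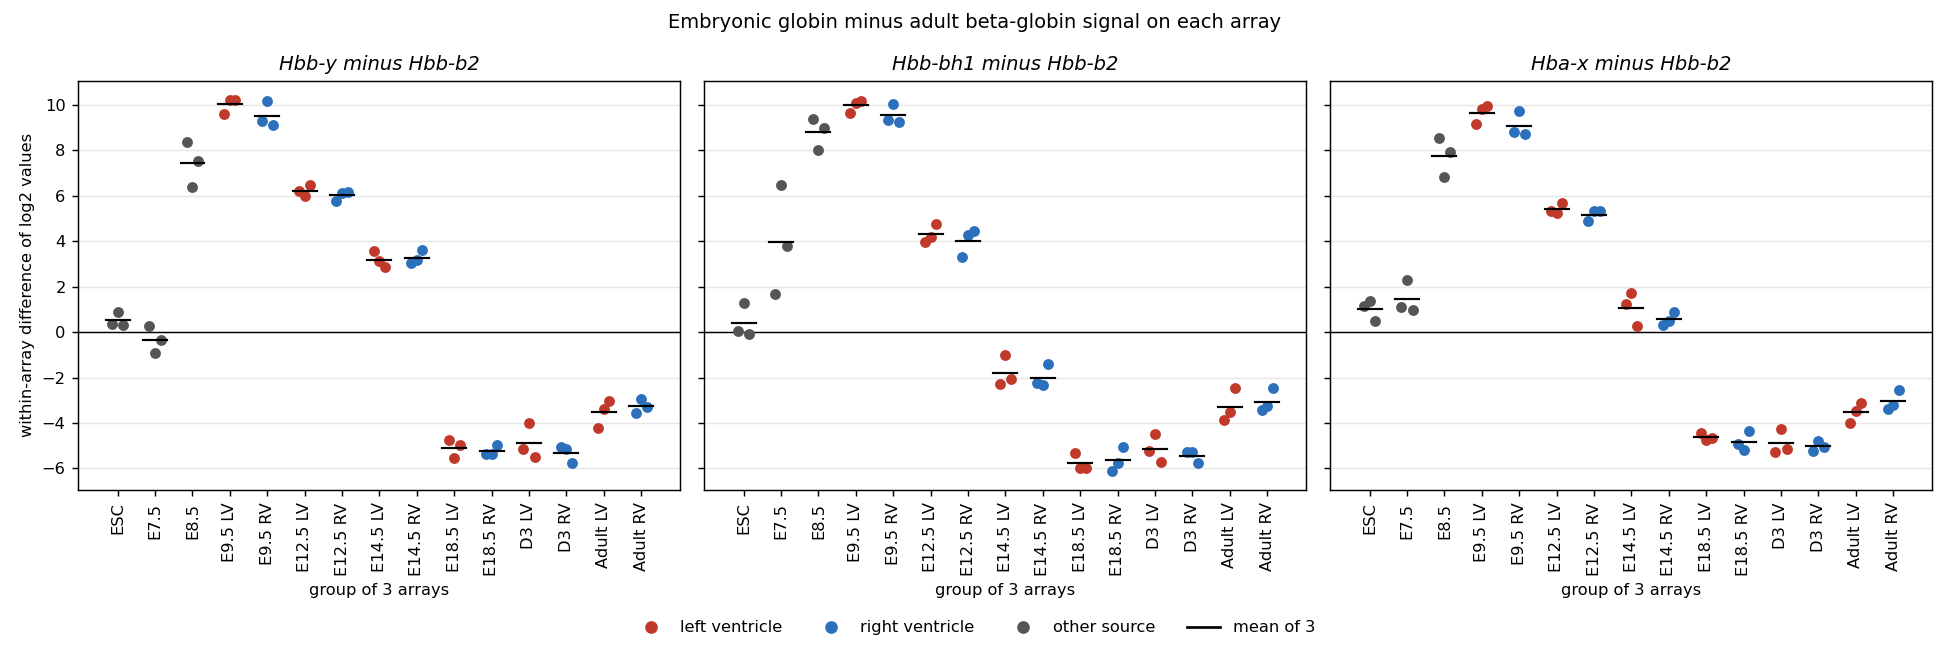
Within-array difference of log2 values of Hbb-y, Hbb-bh1 and Hba-x minus Hbb-b2 (vertical axis) by group (horizontal axis, 3 arrays each, mean as a line; left ventricles red, right blue, other sources grey). The differences are highest at E9.5, between 8.72 and 10.23, lie below 0 on every array from E18.5 on, and for Hbb-bh1 already at E14.5.

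Differences were also taken within an array. For each embryonic globin the value of Hbb-b2 was subtracted on the same array; the size of the difference compares probe sets and has no meaning of its own. Hbb-b2 lay near its floor up to E9.5 and the embryonic globins lay near theirs from E18.5 on, so a shift common to all red cell genes of an array does not cancel at those stages. With the second probe set of Hbb-b2 the change of Hbb-y minus Hbb-b2 from E9.5 to E12.5 turned to 0.60, and that of Hba-x to 0.18. Hbb-y minus Hbb-b2 was 9.77 ± 0.39 at E9.5, 6.12 ± 0.17 at E12.5, 3.23 ± 0.07 at E14.5 and -5.17 ± 0.26 at E18.5 (SD, n = 3). Hbb-bh1 minus Hbb-b2 went from 9.76 ± 0.28 through 4.15 ± 0.49 and -1.90 ± 0.33 to -5.71 ± 0.18 at the same stages. Hba-x minus Hbb-b2 went from 9.36 ± 0.40 through 5.29 ± 0.20 and 0.81 ± 0.26 to -4.72 ± 0.22. At none of these 9 steps did the stages overlap. Each gave an exact permutation p of 0.10, the smallest that 3 values against 3 allow, and 0.12 after adjustment over 15 tests, so that no step can pass 0.05 by this test. The difference for Hbb-bh1 changed most before E14.5, by -5.61 and -6.05, and that for Hbb-y after it, by -8.39. The first of these, from E9.5 to E12.5, held a rise of Hbb-b2 by 4.14. Hbb-bh1 itself changed by -1.47 there, not called by limma (adjusted p = 0.188). With the second probe set of Hbb-b2 the change was -1.36.

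The E14.5 left ventricle array number 2, which was high in every red cell gene, lay within the range of the other left arrays for Hbb-y minus Hbb-b2, at 3.11 against 3.55 and 2.85. It was above them for Hbb-bh1, at -1.03 against -2.30 and -2.07, and for Hba-x, at 1.71 against 1.22 and 0.26. From E18.5 to day 3 the stages overlapped for all 3 globins, with changes of 0.07, 0.42 and -0.24 for Hbb-y, Hbb-bh1 and Hba-x. From day 3 to the adult the differences rose again by 1.69, 2.12 and 1.67 without overlap; the embryonic globins were not called at this step by limma (adjusted p = 0.436, 0.563 and 0.754) and Hbb-b2 fell.

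Set against the mean of Slc4a1 and Alas2 on the same array, Hbb-y went down and Hbb-b2 up over the ventricle stages to E18.5. Hbb-y stood 5.60 ± 0.16 above that mean at E9.5 left and 5.45 ± 0.12 at E9.5 right (SD, n = 3), 3.21 ± 0.73 and 3.92 ± 0.29 above it at E14.5, and 4.35 ± 0.56 and 4.07 ± 0.31 below it at E18.5, written -4.35 and -4.07 as differences. Hbb-b2 went from -4.42 ± 0.26 and -4.08 ± 0.45 at E9.5 to 0.03 ± 0.60 and 0.64 ± 0.16 at E14.5 and 1.46 ± 0.49 and 1.22 ± 0.39 in the adult, so that it did not follow its own value, which fell from E14.5 to the adult. Hbb-bh1 was already lower against the reference at E9.5 (5.56 ± 0.16 and 5.47 ± 0.03) than at E8.5 (6.14 ± 0.09). The 2 reference genes did not keep step with each other either. Alas2 minus Slc4a1 was -2.20 ± 0.09 and -2.16 ± 0.14 at E9.5 (left and right), -0.77 ± 0.30 and -0.50 ± 0.26 at E14.5, 1.85 ± 0.21 and 1.56 ± 0.04 at E18.5, and 2.25 ± 0.43 and 2.08 ± 0.45 in the adult. These are values with no test.

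**Figure D5:**
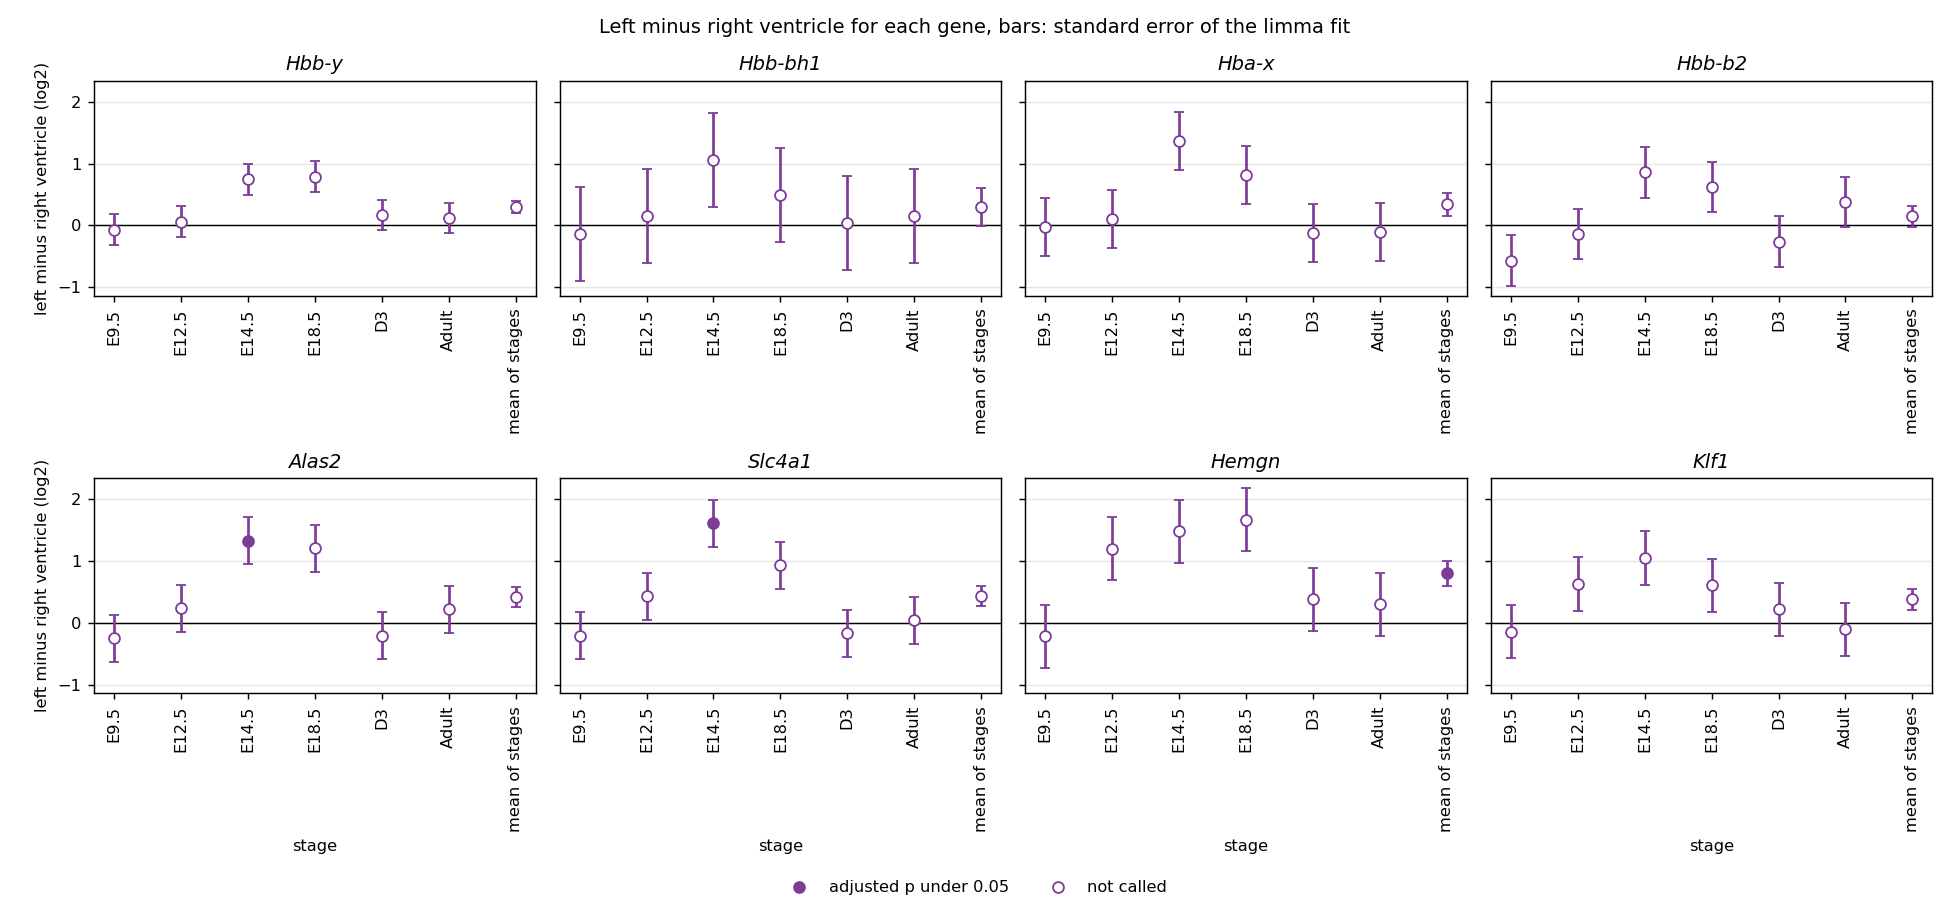
Left minus right ventricle for each of the 8 genes (vertical axis, log2 difference) at each of 6 stages and as their mean (horizontal axis), with the standard error of the limma fit as bars and filled points where the adjusted p was under 0.05. The filled points are Alas2 (1.33) and Slc4a1 (1.61) at E14.5 and Hemgn (0.80) as the mean of stages.

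Red cell genes were higher in the left than in the right ventricle at E14.5, a result that rested on single arrays. By limma on all 45 arrays, Slc4a1 was higher by 1.61 (SE 0.38, adjusted p = 0.00753; left mean 10.97, right mean 9.37) and Alas2 by 1.33 (SE 0.38, adjusted p = 0.0250; 10.20 and 8.87), so that 2 of 8 genes were called higher and 0 lower, against 4.24% and 4.27% of all genes. The other 6 genes were higher on the left by 0.75 (Hbb-y, adjusted p = 0.0586) to 1.48 (Hemgn, adjusted p = 0.0652), none called. Left and right arrays overlapped for all of them but Hba-x. Without the left array number 2 the differences were 0.91 for Slc4a1 (adjusted p = 0.163) and 0.54 for Alas2 (adjusted p = 0.392), and 0 of 8 genes were called; 0 were called without the right array number 2 either. Without the left array number 1, by contrast, 6 were called, and without left number 3 or right number 1 it was 4 each. Liver markers averaged 5.11, 8.07 and 6.98 on the left and 6.58, 4.8 and 5.15 on the right at this stage, 0 of 11 called.

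At the other stages no gene of the 8 was called by limma: 0 at E9.5 and 0 at E12.5 (0 and 1 with an unadjusted p under 0.05; 3.51% and 1.26% of all genes called in either direction), 0 at E18.5 (4 unadjusted; 4.95%), and 0 at day 3 and 0 in the adult (0 and 0 unadjusted; 0.0055% and 0.0165%). How many of all genes had left and right arrays fully apart was not counted at any stage, so such separations are given as values only. At E9.5 the left arrays of Slc4a1 all lay below the right ones (means 9.99 and 10.19), and the median difference of the 8 genes was -0.17. At E12.5 the left arrays of Hemgn and Klf1 all lay above the right ones, by 1.2 (SE 0.51, adjusted p = 0.484) and 0.63 (SE 0.43, adjusted p = 0.849), as did those of Alas2 and Slc4a1. At E18.5 the left arrays of Hbb-y, Alas2, Slc4a1, Hemgn and Klf1 all lay above the right ones, by 0.79, 1.21, 0.93, 1.67 and 0.61, with adjusted p of 0.0506 to 0.471. There 10 of 11 liver markers were higher on the left (Fga, the fibrinogen alpha chain, by 4.60, Alb, albumin, by 4.54, Afp, alpha-fetoprotein, by 3.83 and Fgg, the fibrinogen gamma chain, by 3.34), their means being 6.65 to 9.83 on the left and 4.49 to 5.86 on the right, as were 11 of 24 leukocyte markers. The part of other tissue in the red cell differences was not tested.

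As the mean of 6 stages Hemgn was higher on the left by 0.80 (SE 0.21, adjusted p = 0.0254), so that 1 of 8 genes was higher and 0 lower, against 1.26% and 1.72% of all genes. This was a call lost without the E14.5 right array number 2 (0.74, adjusted p = 0.0530). It was also lost in the limma fit with same-numbered ventricles of a stage as a block (0.80, adjusted p = 0.102) and at a threshold of 0.01. No gene of the 8 had a difference that depended on the stage by the F-test (0 of 8, 2 with an unadjusted p under 0.05, against 5.85% of all genes).

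Other genes of red cells, in lists chosen with earlier results of these data known, were counted beside the members. Among 18 genes of the red cell membrane and surface, 7 rose and 2 fell from E7.5 to E8.5 (20.4% of all genes rose and 28.1% fell; median 0.22, against -0.06 over all genes). Tmod1, a tropomodulin also found in heart muscle, rose by 5.07, and the water channel Aqp1, also found in endothelium, by 2.15; Rhag, the Rh-associated glycoprotein, rose by 1.67 and Trim10 by 1.45. From E8.5 to E9.5 11 rose and 0 fell (12.8% and 14.1% of all genes; median 0.53, against -0.02), among them Rhag by 1.68, glycophorin C (Gypc) by 1.19, the Kell antigen (Kel) by 1.13 and Ermap, the erythroblast membrane protein, by 1.05. From E14.5 to E18.5 6 rose and 7 fell (11.8% and 18.7%; median -0.05, against -0.01), with Rhag falling by 2.00, Trim10 by 1.68, Tspan33 by 1.37 and Kel by 1.32.

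Of 10 genes of haem synthesis besides Alas2, 3 rose and 0 fell from E8.5 to E9.5 (12.8% and 14.1% of all genes; median 0.13, against -0.02): Slc25a37, mitoferrin, which brings iron into mitochondria, by 0.91, Fech, ferrochelatase, which completes haem, by 0.51, and Glrx5 by 0.20. From E9.5 to E12.5, while Alas2 rose, 1 rose and 5 fell (20.1% and 18%; median -0.25, against 0.04): Fech rose by 0.91, and Cpox fell by 0.78, Uros by 0.52 and Alad by 0.51. From E14.5 to the adult 3 rose and 2 fell (32.1% and 32.6%; median 0.15, against 0.05), with Slc25a37 falling by 2.69 and Ppox by 0.35 and Slc25a38 and Uros rising by 0.69 and 0.54. At E14.5 Slc25a37 and Fech were higher on the left by 1.58 and 0.81, 2 of 10 (4.24% of all genes; median 0.14, against -0.05). The list averaged 9.52, 10.29 and 9.62 on the left and 9.70, 9.46 and 9.41 on the right, highest on the left array number 2 with its raised liver markers, and without that array neither gene was called (0.82 and 0.20, adjusted p = 0.0926 and 0.568).

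Of 20 erythroid transcription factors besides Klf1, 8 rose and 3 fell from ESC to E7.5 (24.3% and 25.2% of all genes; median 0.23, against -0.02). Lmo2 rose by 3.36, Tal1 by 2.97, Zfpm1 by 1.82 and Myb by 1.34, all of them factors or cofactors of early blood formation. From E9.5 to E18.5 8 rose and 6 fell (28.6% and 26.9%; median 0.08, against 0.06), with Tal1, Nfe2 and Gata1 falling by 1.35, 1.25 and 1.08 and Zbtb7a rising by 0.98. Of 19 red cell enzymes and related genes, 2 rose and 9 fell from E14.5 to the adult (32.1% and 32.6%; median -0.30, against 0.05). Car2, a carbonic anhydrase, fell by 3.03, Slc43a1 fell by 1.70 and Gpx1 fell by 1.17, and catalase (Cat) rose by 1.3. At E14.5 4 of these 19 were higher on the left and 0 lower (4.24% and 4.27%; median 0.25, against -0.05): Cpa3, a mast cell protease, by 1.60, Car2 by 0.97, Mkrn1 by 0.81 and Ube2o by 0.71. The list averaged 8.28, 9.18 and 8.51 on the left and 8.4, 8.21 and 8.19 on the right, and without the left array number 2 only Cpa3 of these 4 was called (0.93, adjusted p = 0.0171). In a fit of only the groups compared none of these 4, nor Slc25a37 or Fech, was called (adjusted p = 0.114 to 0.31). Of 14 genes of erythropoietin signalling and iron uptake, 9 rose and 2 fell from E14.5 to the adult (32.1% and 32.6%; median 0.48, against 0.05), with Kit falling by 1.98 and Stat5a, Kitl and Hamp rising by 1.59, 1.03 and 0.82. Many genes of these lists are also active in other cells of the heart, and a count near the share of all genes says nothing about its list.

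Of 13 platelet and megakaryocyte genes, 5 rose and 0 fell from E7.5 to E8.5 (20.4% and 28.1% of all genes; median 0.11, against -0.06). From E8.5 to E9.5 9 rose and 1 fell (12.8% and 14.1%; median 0.61, against -0.02). Platelet factor 4 (Pf4) rose by 3.29, Ppbp by 2.91, Tubb1, the platelet tubulin, by 1.83 and the receptor Clec1b by 1.74.

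Patterns most like those of the members were sought over the 15 group means by Pearson's r, as a description; the groups share arrays, and no p is given. Hbb-y and Hba-x were closest to each other (r = 0.980), and the next for Hbb-y were Glrb (0.959), Col4a6 (0.958), Npnt (0.951) and Gabbr1 (0.946), and for Hba-x Glrb (0.972), Col4a6 (0.970), Letmd1 (0.968) and Edil3 (0.955). Closest to Hbb-bh1 were Hapln1 (0.967), Letmd1 (0.966), Wnt5a (0.963), Edil3 (0.955) and Hba-x (0.946), and to Hbb-b2 Lrrc17 (0.984), Nckap5 (0.979), Usp20 (0.972), Hbp1 (0.972) and Cdkn2c (0.971). Alas2 was nearest to Irf2bp2 (0.974), Cep83os (0.958), Lmbr1 (0.957), Tent5c (0.955) and Apold1 (0.955), and Slc4a1 to Cnot6 (0.964), Wt1 (0.960), Tbx18 (0.952), Adgrg6 (0.950) and Matr3 (0.949). Hemgn was nearest to Rhag (0.990), Klf1 (0.954), Cerox1 (0.938), Redrum (0.936) and Spaca1 (0.919), and Klf1 to Redrum (0.960), Hemgn (0.954), Rhag (0.950), Nav1 (0.920) and Vnn1 (0.908). Among the members, Hbb-b2 followed Alas2 (0.90) and ran against Hbb-bh1 (-0.44), while its correlation with Hbb-y was -0.10. Hemgn and Klf1 followed Hbb-y at 0.91 and 0.88, and Alas2 did so at 0.17.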

How the data were processed

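Gene expression was measured in 45 samples of mouse embryonic stem cells, embryos and hearts, 3 in each of 15 groups, grouped by stage and ventricle as labelled. Per the submitters' processing notes, the authors summarised the probes with RMA, and the log2 values they deposited were used as they stand; the version of RMA is not given in the sources used here. RMA equalises the distribution of values between arrays (medians 5.35 to 5.47) and compresses differences near background and near the top of the scale. No detection calls were used. Of the 45101 probe sets of the array 64 are controls; the platform annotation listed 35890, of which 34958 had 1 gene symbol and 932 several, and 34754 matched a RefSeq gene. For each of 18194 genes the probe set of highest mean, taken across all 45 arrays, was used. The 8 genes had 15 probe sets in all. The genes and gene lists were chosen with earlier results of these data known.

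Stage steps and ventricle differences were tested two-sided in R 4.3.3 by the moderated fit of limma 3.58.1, adjusted after Benjamini and Hochberg across all genes, at a threshold of 0.05. For stages, left and right of a number were averaged (27 values, 18 residual degrees of freedom), and ventricles were compared over all 45 arrays (30 residual degrees of freedom; F-test with 5). Within-array globin differences were compared by exact permutation. Single probe sets were tested in a fit of all 45037. The text names the 8 genes, up to 4 called genes with the largest changes per list described, and the 5 genes most correlated with each member. Same-numbered ventricles deviated together in all 3 pairs at E12.5 (correlations of 0.271, 0.321 and 0.369 over all genes). The pairs gave 0.257, 0.317 and 0.071 at E9.5 and 0.223, 0.330 and -0.096 in the adult. They gave -0.119, -0.139 and 0.110 at E14.5, and -0.236, -0.156 and -0.318 at E18.5. At day 3 they gave 0.167, 0.028 and 0.091, and 0.379, 0.122 and 0.239 among genes above the median. The labels do not state pairing. In simulated data with 200 changed genes, 98.5% of changes of 1 were recovered from E12.5 to E14.5 and 97% between ventricles at E12.5, with 8 of 188 and 10 of 178 calls false. The simulated noise was normal, with the same spread in every group of a gene and no outlying arrays. The recovery therefore does not cover members with uneven spread, such as Hbb-bh1. Tables were made with pandas 2.3.3 and NumPy 2.4.6 under Python 3.11.15, and plots with Matplotlib 3.10.9. Alternatives were trended and robust eBayes, a fit restricted to the groups of a comparison, a filter on low values (genes above the median in at least 3 arrays), means over probe sets, housekeeping scaling, a threshold of 0.01, left or right ventricles only, all arrays as 15 groups, each replicate left out, arrays with other tissue left out and a replicate block. Added after seeing the data were leaving out the E14.5 left array number 2 before averaging, single probe sets, and leaving out replicates for the globin differences.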

Additional observations from a re-analysis of the deposited data

How the results depend on the processing

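Of 2672 values of single members under alternatives, 2554 kept their side of the threshold, 59 passed only under the alternative and 59 lost the call. Of those called in either fit, 0 changed direction. Where neither fit was called, directions were not compared, and the F-tests have none. The counts of called members moved by more than 1.5 times as follows; beyond fewer samples or genes tested, the cause was not tested. From ESC to E7.5 (2 of 8), 1 was called at a threshold of 0.01, 1 with only the groups compared and 4 with housekeeping scaling. With left ventricles only, 3 in place of 5 were called from E8.5 to E9.5 and 2 in place of 4 from E9.5 to E12.5, where only the groups compared gave 7. From E18.5 to day 3 (2), 1 was called at 0.01, 6 with only the groups compared, 0 with right ventricles only and 0 without arrays that hold other tissue. Between ventricles, only the groups compared gave 1 in place of 0 at E12.5 and 0 in place of 2 at E14.5; also at E14.5, 0.01 gave 1, the filter on low values 5 and leaving out arrays with other tissue 1. At E18.5 the filter gave 3 and the mean over probe sets 1 in place of 0. For the mean of stages (1), 0 were called at 0.01 and 0 with the replicate block of stage and number (Hemgn 0.80, adjusted p = 0.102 by limma), which changed no other count of called members by more than 1.5 times. The same block called Hba-x between ventricles at E14.5 (1.36, adjusted p = 0.0316 by limma) and lost Car2, Fech and Mkrn1 there. The labels do not say whether same-numbered ventricles of that stage share hearts. Leaving out single replicates gave 1 to 6 called from ESC to E7.5, 0 to 2 from E18.5 to day 3, 0 to 6 between ventricles at E14.5, 0 to 4 at E18.5, 0 to 3 for the mean of stages and 0 to 2 for the dependence on stage.

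With 3 values a stage, leaving out 1 replicate cannot move a stage mean by 1 SD. The changes of the globin differences kept within 1 SD for that reason alone, which says nothing about their stability. With the second, nearly flat probe set of Hbb-b2 in place of the first, those of Hbb-y reversed from E9.5 to E12.5 (0.60) and from day 3 to the adult (-0.33), as did those of Hba-x (0.18 and -0.35). The others with that probe set were -1.19, -7.92 and -1.16 for Hbb-y at the 3 steps from E12.5 to day 3, -1.36, -4.35, -3.33, -0.82 and 0.10 for Hbb-bh1 at the 5 steps from E9.5 to the adult, and -2.78, -5.06 and -1.47 for Hba-x from E12.5 to day 3. With the 2 other probe sets of Hbb-y the changes were -2.00 and -2.02 from E12.5 to E14.5, -9.05 and -9.30 to E18.5, -1.79 and -1.54 to day 3, and 1.15 and 1.03 to the adult. With those of Hbb-bh1 they were -4.20 from E14.5 to E18.5 for 1, and 0.87 and 1.01 from day 3 to the adult. Precision was limited by 3 arrays a group and, near 15, by the top of the scale.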
